A study of Homo sapiens with 16 samples.

Results

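Antisense long noncoding RNAs (lncRNAs) are described here with the protein-coding genes they are named after. The data come from 2 human anaplastic thyroid carcinoma cell lines treated with compounds directed at the ERK pathway. The members are the genes annotated as lncRNA whose symbol ends in -AS1 or -AS2 and whose normalized count averaged 30 or more over all 16 libraries. The members were thus selected on symbol and on the mean over libraries of every group. No difference between groups was used, but the mean includes the treated libraries. A lncRNA low with DMSO could therefore pass through a group where it was high, and the counts of members called higher are not free of this. The members number 243, of 1392 lncRNAs with such a symbol, 16899 lncRNAs and 60715 genes in the table. Of the 243, 232 end in -AS1 and 11 in -AS2. ZMIZ1-AS1, an antisense lncRNA of the same kind, averaged 5.84 normalized counts and is not a member, so its values stand apart near the end.

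CAL62 carries a K-RAS mutation and 8505c a BRAF mutation. Each line was grown in DMEM with 10% FBS for 24 h with 1 µM DEL-22379, with 10 µM DEL-22379, with 10 µM U0126 or with the vehicle DMSO, and each of the 8 groups has 2 replicates. DEL-22379 was first described as an inhibitor of ERK dimerization, and U0126 inhibits MEK, the kinase directly above ERK. In the study's own blots after brief EGF stimulation, DEL-22379 did not prevent ERK dimerization in CAL62. In 8505c it prevented dimerization and also reduced the phosphorylation of MEK and ERK. The sample labels give the doses in mM and the study's methods give them in µM, the unit used here. Each driver mutation is represented by 1 line, so the driver and the line cannot be told apart. The study's methods call the replicates biological, and neither they nor the labels say what was repeated, so p-values measure the spread between these libraries.

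Antisense lncRNAs are transcribed from the strand opposite to a coding gene. Many start close to the promoter of their partner and run away from it, others overlap its body or its end. Some are known to act on the partner in cis, by affecting its chromatin, transcription or splicing, others act elsewhere in the cell, and for most no function is known. The symbol records only the position, so a shared name is no statement about regulation.

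All 243 members were placed on GRCh38 by the GENCODE 29 annotation, and 239 had a coding gene of the same name in the table, which gave 235 different partners because 4 were named by 2 members. PRR34-AS1, RPARP-AS1 and DARS-AS1 had no coding gene of that name, and TMSB15B-AS1 had more than 1. Of the 239 pairs, 112 overlapped at their 5′ ends, 48 overlapped at their 3′ ends and 30 lay head to head without overlap. A further 27 members lay within the partner, 21 spanned it and 1 pair lay tail to tail. The starts of member and partner lay within 1000 bases of each other in 99 pairs, with a median distance of 2259 bases. In 176 pairs the exons share bases and in 63 they share none. The libraries were made with a stranded kit, but whether reads were counted by strand is not given in the sources used here. Reads from shared exons may therefore be counted for either gene, so the number of shared bases is given for the pairs described.

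The promoter windows of 5 members that carry the main results are printed first, so that they can be read beside the levels. Each runs from 250 bases before to 50 bases after the start that RefSeq gives on GRCh38.p14, which need not be the GENCODE start, and each is read 5′ to 3′ on the member's own strand, here the plus strand. The searched motifs were the CCAAT box (CCAAT), the AP-1 site (TGANTCA), the cAMP response element (TGACGTCA), an ETS site (CCGGAAGT) and 2 forms of the E2F site (TTTCCCGC and TTTGGCGC), on both strands, and capitals mark a match.
SBF2-AS1, chr11:9758043-9758342: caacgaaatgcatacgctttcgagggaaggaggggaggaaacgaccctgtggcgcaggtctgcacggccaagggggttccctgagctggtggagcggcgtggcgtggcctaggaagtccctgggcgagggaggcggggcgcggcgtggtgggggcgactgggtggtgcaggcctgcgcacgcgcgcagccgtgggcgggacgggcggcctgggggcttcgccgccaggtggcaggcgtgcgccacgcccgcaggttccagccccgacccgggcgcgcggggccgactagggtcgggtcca
MAP3K14-AS1, chr17:45247675-45247974: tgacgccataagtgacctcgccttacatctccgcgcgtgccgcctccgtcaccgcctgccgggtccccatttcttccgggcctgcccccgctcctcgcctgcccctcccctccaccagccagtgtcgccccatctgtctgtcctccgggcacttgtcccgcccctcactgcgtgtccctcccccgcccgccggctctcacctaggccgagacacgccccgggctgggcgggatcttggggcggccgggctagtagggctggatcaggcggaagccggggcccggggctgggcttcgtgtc
SNAI3-AS1, chr16:88663123-88663422: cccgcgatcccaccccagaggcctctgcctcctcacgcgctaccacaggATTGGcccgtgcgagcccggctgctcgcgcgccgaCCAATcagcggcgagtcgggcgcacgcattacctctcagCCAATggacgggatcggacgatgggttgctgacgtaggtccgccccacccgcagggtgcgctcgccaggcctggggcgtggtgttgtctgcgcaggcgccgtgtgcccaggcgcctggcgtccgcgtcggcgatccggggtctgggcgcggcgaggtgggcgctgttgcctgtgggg
INTS6-AS1, chr13:51453095-51453394: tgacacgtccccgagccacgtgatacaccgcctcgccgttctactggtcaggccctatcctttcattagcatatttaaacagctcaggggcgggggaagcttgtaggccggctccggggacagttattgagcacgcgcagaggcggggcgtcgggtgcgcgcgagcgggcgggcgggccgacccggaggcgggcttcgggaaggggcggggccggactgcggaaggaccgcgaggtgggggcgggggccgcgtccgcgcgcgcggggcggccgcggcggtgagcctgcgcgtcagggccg
GABPB1-AS1, chr15:50353924-50354223: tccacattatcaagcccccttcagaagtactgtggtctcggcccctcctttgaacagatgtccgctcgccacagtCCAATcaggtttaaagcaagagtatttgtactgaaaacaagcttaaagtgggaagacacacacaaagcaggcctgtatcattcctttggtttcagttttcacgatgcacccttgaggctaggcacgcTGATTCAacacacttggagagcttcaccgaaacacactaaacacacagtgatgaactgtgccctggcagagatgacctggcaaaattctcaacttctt

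The SNAI3-AS1 window holds 3 CCAAT boxes, which start 201, 166 and 127 bases before the start, the first on the minus strand. The GABPB1-AS1 window holds a CCAAT box 175 bases and an AP-1 site 48 bases before the start, and the other 3 windows hold none of the searched letters. CCAAT stood in 32.4% of the 176 windows of members, against 34.6% of the 35116 RefSeq promoter windows of this length, and TGANTCA in 5.11% of the members' windows, against 7.71%. The G and C content was 74.3% for SBF2-AS1, 73.0% for INTS6-AS1, 72.7% for SNAI3-AS1, 72.3% for MAP3K14-AS1 and 47.0% for GABPB1-AS1.

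The deposited values are read counts divided by a size factor for each library, and the whole reads behind them came to 25683054 to 43855877 per library. Of 60715 genes, 19127 reached 10 normalized counts in 2 or more libraries and were tested, among them all 243 members and the partners of 221. DUSP6, a phosphatase gene induced by ERK activity, had 178 and 169 normalized counts in CAL62 with U0126, against 2014 and 1863 with DMSO. The 8505c libraries had 186 and 95.5 with U0126, against 2177 and 2273 with DMSO. With 10 µM DEL-22379 DUSP6 had 3178 and 1971 in CAL62 and 1154 and 1383 in 8505c. SPRY4, ETV4, ETV5 and EGR1, also taken as ERK output, were lower with U0126 in both lines (adjusted p below 0.05, limma). In CAL62 with 10 µM DEL-22379, SPRY4 (log2 fold change 1.46), ETV5 (0.56) and EGR1 (5.04) were higher by this test, but ETV4 (-0.03) was not. In 8505c with 10 µM DEL-22379 only SPRY4 of these genes passed, and it was lower (-1.49). NKX2-1, a thyroid transcription factor, reached at most 1.11 in any CAL62 library and 3765 to 6234 in 8505c, whereas PAX8 was at 7285 to 12449 in CAL62 and 47.2 to 128.8 in 8505c. TSHR was at 0 in all libraries, and the leukocyte marker PTPRC reached at most 11.6. In bulk RNA a lower level can mean fewer expressing cells or less RNA per cell, and these cannot be told apart.

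In CAL62, 10 µM DEL-22379 moved antisense lncRNAs in both directions and U0126 mostly upward. With 10 µM DEL-22379, 77 of 243 members were called at an adjusted p below 0.05 (limma on log2 of the normalized count plus 1, adjusted over all genes tested), 29 higher and 48 lower than DMSO, or 31.7%, against 33.9% of all genes. Of all genes, 17.1% were called higher and 16.8% lower. With U0126, 67 were called, 53 higher and 14 lower, or 27.6%, against 29.2% of all genes. The shares called were thus near those of all genes, but the split under U0126 was not. Members called higher made up 21.8%, against 15.1% of the 880 other lncRNAs with a mean of 30 or more and 14.1% of all genes, and members called lower made up 5.76%, against 7.05% of the other lncRNAs and 15.1% of all genes. The other lncRNAs thus leaned the same way, and the difference between them and the members was not tested. The median log2 fold change with U0126 was 0.48 over members, 0.23 over the other lncRNAs and 0.04 over all genes. With 10 µM DEL-22379 these medians were -0.05, 0.01 and 0.00.

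In 8505c fewer members were called in the fit over all 16 libraries, but not when each line was fitted alone, which gave 47 in CAL62 and 63 in 8505c for 10 µM DEL-22379, and 34 in CAL62 and 47 in 8505c for U0126. Over all libraries there were 36 with 10 µM DEL-22379, 25 higher and 11 lower, or 14.8%, against 13.6% of all genes, of which 7.07% were higher and 6.57% lower, and the median log2 fold change was 0.26 over members, 0.24 over the other lncRNAs and 0.01 over all genes. Of the other lncRNAs, 9.2% were called higher and 2.61% lower. With U0126 there were 23, 8 higher and 15 lower, or 9.47%, against 12.7% of all genes, of which 6.8% were higher and 5.87% lower. The other lncRNAs split the same way with U0126, 3.75% called higher and 5.8% lower. Median log2 fold changes with U0126 were 0.16 over members, 0.002 over the other lncRNAs and 0.02 over all genes. The median over members was thus positive although more members were called lower than higher. Under scaling to equal totals, which moved the median of all genes with 10 µM DEL-22379 to 0.14, the split of members was 33 higher and 5 lower, and under quantile normalization it was 15 and 12. Under quantile normalization the U0126 split was 6 higher and 19 lower.

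**Figure D1:**
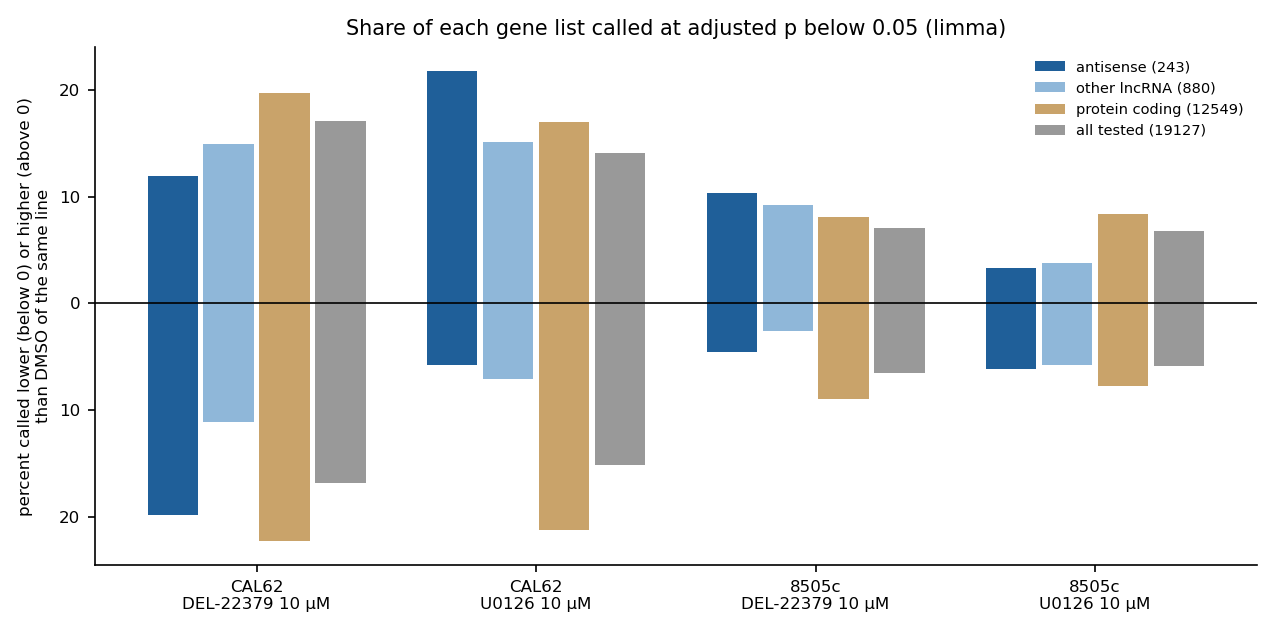
Percent of genes in 4 lists called higher (above 0) or lower (below 0) than DMSO at an adjusted p below 0.05, for each line and inhibitor at 10 µM; bars are the 243 antisense members, the 880 other lncRNAs and the 12549 coding genes with a mean of 30 or more, and all 19127 genes tested. In CAL62 with U0126 the antisense bar reaches 21.8% above 0 and 5.76% below it.

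These counts rest on 2 replicates per group and moved with single libraries. The 77 calls in CAL62 with 10 µM DEL-22379 became 46 without replicate 2 of that group and 45 without DMSO replicate 1. The 67 calls with U0126 became 16 without CAL62 DMSO replicate 1, of which 11 were higher and 5 lower, and 30 or 33 without U0126 replicate 1 or 2. In 8505c the 36 calls with 10 µM DEL-22379 became 6 or 22 without DEL-22379 replicate 1 or 2, and 10 or 8 without DMSO replicate 1 or 2. The 23 calls with U0126 became 11 or 6 without U0126 replicate 1 or 2, and 8 or 9 without DMSO replicate 1 or 2. Members called in every fit that left out 1 library numbered 32 of 77 and 12 of 67 in CAL62, and 5 of 36 and 5 of 23 in 8505c. For most calls below that were lost without 1 to 4 of the libraries, those libraries and the values without them are given, and for those lost more often the number of fits.

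Among members named after signalling genes, MAP3K14-AS1 rose with 10 µM DEL-22379 in both lines. MAP3K14 encodes NIK, the kinase that drives the non-canonical NF-κB pathway. MAP3K14-AS1 (ENSG00000267278.6, chr17:45247925-45268630 on the plus strand) overlaps the 3′ end of MAP3K14 and shares 713 exon bases with it. In CAL62 it had 169.8 and 232 normalized counts with 10 µM DEL-22379 and 188 and 226 with U0126, against 18.7 and 46.2 with DMSO. In 8505c it had 215 and 199 with 10 µM DEL-22379 and 63.1 and 78.1 with U0126, against 28.5 and 27.0 with DMSO. Every treated library at 10 µM lay above the DMSO libraries of its line, and 3 of these 4 comparisons were called. The log2 fold changes were 2.71 ± 0.49 (SE, adjusted p = 0.00127) with 10 µM DEL-22379 and 2.76 ± 0.49 (SE, adjusted p = 0.00142) with U0126 in CAL62. In 8505c they were 2.85 ± 0.49 (SE, adjusted p = 0.00349) with 10 µM DEL-22379 and 1.31 ± 0.49 (SE, adjusted p = 0.102) with U0126. The 3 calls held without each library. MAP3K14 had 619 and 686 normalized counts in CAL62 with U0126, against 1112 and 1106 with DMSO. It fell there while its antisense RNA rose (log2 fold change -0.77 ± 0.10 (SE), adjusted p = 0.00025), a call that also held without each library. With 10 µM DEL-22379 it had 1369 and 1478 and rose with the antisense RNA (0.36, adjusted p = 0.0188), a call lost without CAL62 10 µM DEL-22379 replicate 2 (0.30, adjusted p = 0.102), CAL62 DMSO replicate 1 (0.36, adjusted p = 0.0715) or CAL62 DMSO replicate 2 (0.35, adjusted p = 0.059).

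PTPRG-AS1 went with its partner under one inhibitor and against it under the other. PTPRG encodes a receptor-type tyrosine phosphatase, and the pair shares 1207 exon bases at its 3′ ends. In CAL62 PTPRG-AS1 had 35.7 and 27.9 normalized counts with 10 µM DEL-22379 and 57.1 and 73.2 with U0126, against 179 and 157 with DMSO. PTPRG had 2332 and 2239 with 10 µM DEL-22379 and 7657 and 6832 with U0126, against 4040.2 and 4241 with DMSO. The antisense RNA was below DMSO in all 4 treated libraries, whereas PTPRG was below it with DEL-22379 and above it with U0126. The log2 fold changes with 10 µM DEL-22379 were -2.37, adjusted p = 0.00032, for PTPRG-AS1 and -0.86, adjusted p = 0.0012, for PTPRG, and both calls held without each library. With U0126 they were -1.36, adjusted p = 0.0107, for PTPRG-AS1 and 0.80, adjusted p = 0.00228, for PTPRG, and the call on PTPRG-AS1 was lost without CAL62 DMSO replicate 1 (-1.27, adjusted p = 0.0825) or CAL62 U0126 replicate 1 (-1.18, adjusted p = 0.0782).

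PRKCQ-AS1 and PRKAR2A-AS1 start next to genes of kinase signalling. PRKCQ encodes protein kinase C theta, and PRKCQ-AS1 lies head to head with it, 118 bases from start to start, with no shared exon base. In CAL62 PRKCQ-AS1 had 39.6 and 38.2 normalized counts with 10 µM DEL-22379, against 206 and 164 with DMSO (log2 fold change -2.21 ± 0.34 (SE), adjusted p = 0.00042). Its 8505c values were 17.6 and 20.3 with 10 µM DEL-22379, against 45.6 and 46.4 with DMSO (-1.24, adjusted p = 0.0298), and this call was lost without 8505c 10 µM DEL-22379 replicate 1 (-1.14, adjusted p = 0.17), 8505c 10 µM DEL-22379 replicate 2 (-1.33, adjusted p = 0.0649), 8505c DMSO replicate 1 (-1.25, adjusted p = 0.119) or 8505c DMSO replicate 2 (-1.23, adjusted p = 0.127). In neither line did the groups overlap. PRKCQ itself stood at 9.4 and 3.25 in 8505c with 10 µM DEL-22379, against 1.14 and 0 with DMSO, so near 0 that no fold is given. PRKAR2A encodes a regulatory subunit of protein kinase A, and PRKAR2A-AS1 shares 275 exon bases with it. PRKAR2A-AS1 had 54.9 and 82.6 in CAL62 with 10 µM DEL-22379, against 14.7 and 20.3 with DMSO (log2 fold change 1.90 ± 0.40 (SE), adjusted p = 0.00316). The 8505c values were 193 and 119 with 10 µM DEL-22379, against 52.4 and 31.3 with DMSO (1.87, adjusted p = 0.0102), a call lost without 8505c 10 µM DEL-22379 replicate 1 (1.52, adjusted p = 0.117) or 8505c DMSO replicate 2 (1.51, adjusted p = 0.0934). It was higher in both lines with no overlap.

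Of members named after transcription factors, ZFHX4-AS1 moved with its partner under both inhibitors in CAL62. ZFHX4 encodes a zinc finger homeobox protein, and the pair overlaps at its 5′ ends with no shared exon base. ZFHX4-AS1 had 14.0 and 14.4 normalized counts in CAL62 with 10 µM DEL-22379 and 898 and 614 with U0126, against 69.6 and 135 with DMSO. ZFHX4 had 107 and 103 with 10 µM DEL-22379 and 1967 and 2007 with U0126, against 439 and 624 with DMSO. Both genes fell with DEL-22379 and rose with U0126, and no 2 of the 3 groups overlapped for either gene. With 10 µM DEL-22379 the log2 fold changes were -2.68, adjusted p = 0.00051, for ZFHX4-AS1 and -2.30, adjusted p = 1.2e-05, for ZFHX4. With U0126 they were 2.92, adjusted p = 0.00037, for ZFHX4-AS1 and 1.92, adjusted p = 3.5e-05, for ZFHX4, and all 4 calls held without each library. In 8505c ZFHX4-AS1 had 51.7 and 30.8 with 10 µM DEL-22379 and 108 and 59.9 with U0126, against 94.6 and 62.6 with DMSO, and neither comparison was called (adjusted p = 0.161 and 0.955, limma).

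SNAI3-AS1 rose with both inhibitors in both lines, and each of the 4 calls held without each library. SNAI3 encodes a Snail-family repressor, and SNAI3-AS1 (ENSG00000260630.7, chr16:88663298-88687186 on the plus strand) spans it and shares 163 exon bases with it. In CAL62 it had 199 and 248 normalized counts with 10 µM DEL-22379 and 257 and 232 with U0126, against 89.7 and 115 with DMSO. In 8505c it had 172 and 186 with 10 µM DEL-22379 and 196 and 191 with U0126, against 49 and 59.4 with DMSO. All 8 libraries at 10 µM lay above all 4 DMSO libraries. The log2 fold changes in CAL62 were 1.12, adjusted p = 0.0034, with DEL-22379 and 1.26, adjusted p = 0.00212, with U0126, and in 8505c 1.71, adjusted p = 0.00111, and 1.82, adjusted p = 0.00055. The 2 comparisons within a line share their DMSO libraries. SNAI3 reached at most 27.9 normalized counts in any library.

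GABPB1-AS1 rose with 10 µM DEL-22379 in both lines. GABPB1 encodes the beta subunit of the ETS-type factor GABP, and the pair shares 424 exon bases at its 5′ ends. GABPB1-AS1 (ENSG00000244879.8, chr15:50354959-50372202 on the plus strand) had 1595 and 2321 normalized counts in CAL62 with 10 µM DEL-22379, against 377 and 543 with DMSO (log2 fold change 2.09 ± 0.26 (SE), adjusted p = 0.00012). It had 1622 and 959 in 8505c, against 513 and 491 with DMSO (1.31, adjusted p = 0.00734). The groups did not overlap in either line, and the 8505c call was lost without 8505c 10 µM DEL-22379 replicate 1 (0.93, adjusted p = 0.0961) or 8505c DMSO replicate 2 (1.28, adjusted p = 0.0529). GABPB1 had 579 and 569.8 in 8505c with 10 µM DEL-22379, against 1092 and 1114 with DMSO, opposite to the antisense RNA (-0.94, adjusted p = 0.0164). That call was lost without 8505c 10 µM DEL-22379 replicate 1 (-0.95, adjusted p = 0.102), 8505c 10 µM DEL-22379 replicate 2 (-0.93, adjusted p = 0.0594), 8505c DMSO replicate 1 (-0.95, adjusted p = 0.0799) or 8505c DMSO replicate 2 (-0.92, adjusted p = 0.0894). With U0126, GABPB1-AS1 had 629.6 and 664 in CAL62 and 419 and 391 in 8505c, neither called against DMSO (adjusted p = 0.16 and 0.495, limma).

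NR2F1-AS1 belongs to the nuclear receptor gene NR2F1 and shares 158 exon bases with it. In CAL62 it had 15.3 and 26.8 normalized counts with 10 µM DEL-22379 and 23.6 and 30.4 with U0126, against 58.9 and 66.5 with DMSO. It fell with both (log2 fold changes -1.58, adjusted p = 0.00184, and -1.20, adjusted p = 0.0108), and the U0126 call was lost without CAL62 U0126 replicate 1 (-1.02, adjusted p = 0.0789). NR2F1 rose with U0126 in CAL62 (0.74, adjusted p = 0.0085), a call lost without CAL62 DMSO replicate 1 (0.61, adjusted p = 0.0858) or CAL62 U0126 replicate 1 (0.56, adjusted p = 0.0844). In 8505c NR2F1 fell with 10 µM DEL-22379 (-1.18, adjusted p = 0.0017) and with U0126 (-2.24, adjusted p = 2.5e-05), and NR2F1-AS1 had 299 and 313 with U0126, against 482 and 651 with DMSO, which was not called (-0.87, adjusted p = 0.0809). ZEB1-AS1, whose partner encodes a repressor of epithelial genes, was not called against DMSO in any comparison at 10 µM (adjusted p from 0.0679 to 0.61, limma). ZEB1 itself rose with 10 µM DEL-22379 in CAL62 (0.85, adjusted p = 0.00054) and fell in 8505c (-0.82, adjusted p = 0.00269).

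**Figure D2:**
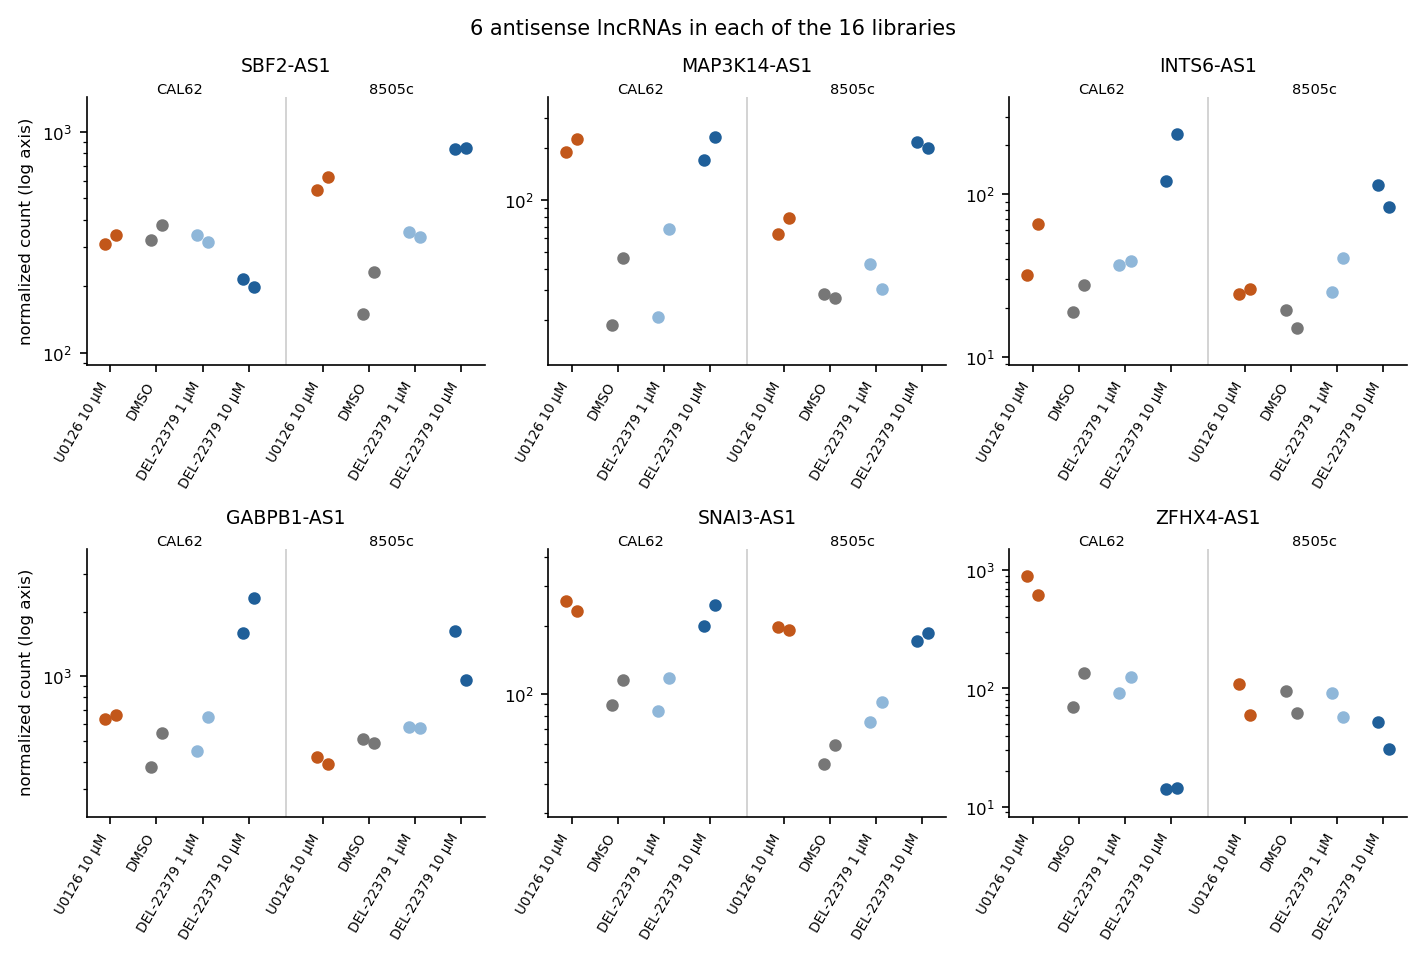
Normalized counts (log axis) of 6 antisense lncRNAs in each of the 16 libraries, one point per library, with CAL62 left and 8505c right in each panel and the groups in the order 10 µM U0126, DMSO, 1 µM and 10 µM DEL-22379. SBF2-AS1 with 10 µM DEL-22379 lies at 197 to 214 in CAL62, below its DMSO libraries, and at 838 to 844 in 8505c, above them.

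In CAL62 CCDC18-AS1, with 72 shared exon bases, had 640.4 and 655 normalized counts with U0126, against 127 and 261 with DMSO (1.82, adjusted p = 0.00484), while CCDC18 fell (-1.13, adjusted p = 0.00015). The CCDC18-AS1 call was lost without CAL62 DMSO replicate 1 (1.31, adjusted p = 0.0662). DDX11 encodes a DNA helicase, and DDX11-AS1, chosen after its values were seen, fell with it under U0126 in CAL62 (DDX11-AS1 -1.45, adjusted p = 0.0087, and DDX11 -2.42, adjusted p = 1.6e-05). The DDX11-AS1 call was lost without CAL62 DMSO replicate 2 (-1.13, adjusted p = 0.0566) or CAL62 U0126 replicate 1 (-0.96, adjusted p = 0.0936).

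TMPO-AS1 fell in CAL62 with 10 µM DEL-22379. TMPO encodes lamina-associated proteins of the nuclear envelope, and the pair shares 713 exon bases. TMPO-AS1 had 133 and 80.5 normalized counts, against 633 and 374 with DMSO (log2 fold change -2.22 ± 0.36 (SE), adjusted p = 0.00059), with no overlap, and the call held without each library. TMPO had 5062 and 3377, against 10733 and 7031 with DMSO (-1.07, adjusted p = 0.0115), a call lost without CAL62 10 µM DEL-22379 replicate 2 (-0.78, adjusted p = 0.117) or CAL62 DMSO replicate 1 (-0.77, adjusted p = 0.109). MORC2-AS1, named after a chromatin-compacting ATPase gene, had 23.0 and 14.4 in CAL62 with 10 µM DEL-22379, against 85.7 and 79.4 with DMSO (-2.12, adjusted p = 0.00979). MORC2 moved the other way (0.61, adjusted p = 0.00301), the pair shares 1616 exon bases, and the MORC2-AS1 call was lost without CAL62 10 µM DEL-22379 replicate 2 (-1.80, adjusted p = 0.0759) or CAL62 DMSO replicate 1 (-2.06, adjusted p = 0.0554). In 8505c MORC2-AS1 reached at most 1.79 in any library.

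INTS6-AS1 rose with 10 µM DEL-22379 in both lines while its partner was not called. INTS6 encodes a subunit of the Integrator complex, and the pair shares 243 exon bases at its 5′ ends. INTS6-AS1 (ENSG00000236778.8, chr13:51452367-51552364 on the plus strand) had 120.0 and 233 normalized counts in CAL62 with 10 µM DEL-22379, against 18.7 and 27.7 with DMSO (log2 fold change 2.82 ± 0.43 (SE), adjusted p = 0.00041). Levels in 8505c were 114 and 83.6 with 10 µM DEL-22379, against 19.4 and 15.1 with DMSO (2.44, adjusted p = 0.0039). The 10 µM libraries were above DMSO without overlap in both lines, and the 8505c call was lost without 8505c 10 µM DEL-22379 replicate 1 (2.22, adjusted p = 0.053). INTS6 had 1284 and 2032 in CAL62, against 1302 and 1576 with DMSO, and 1073 and 1279 in 8505c, against 1149.8 and 1248 with DMSO (adjusted p = 0.566 and 0.953, limma). DICER1-AS1, next to the gene of the microRNA-processing enzyme with 80 shared exon bases, had 40.0 and 26.0 in 8505c with 10 µM DEL-22379, against 13.7 and 14.0 with DMSO (1.16, adjusted p = 0.0315). DICER1 moved the other way (-0.71, adjusted p = 0.0192). The DICER1-AS1 call was lost without 8505c 10 µM DEL-22379 replicate 1 (0.86, adjusted p = 0.235), 8505c DMSO replicate 1 (1.14, adjusted p = 0.127) or 8505c DMSO replicate 2 (1.18, adjusted p = 0.119), and the DICER1 call without 8505c 10 µM DEL-22379 replicate 1 (-0.49, adjusted p = 0.198), 8505c DMSO replicate 1 (-0.66, adjusted p = 0.114) or 8505c DMSO replicate 2 (-0.77, adjusted p = 0.0754).

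SBF2-AS1 was the member whose response to 10 µM DEL-22379 went in opposite directions in the 2 lines. SBF2 encodes a myotubularin-related protein of membrane traffic, and SBF2-AS1 (ENSG00000246273.8, chr11:9758292-9811335 on the plus strand) overlaps its 3′ end with 1495 shared exon bases. In CAL62 SBF2-AS1 had 214 and 197 normalized counts with 10 µM DEL-22379 and 309 and 342 with U0126, against 324 and 379 with DMSO. In 8505c it had 838 and 844 with 10 µM DEL-22379 and 542 and 621 with U0126, against 149 and 231 with DMSO. The DEL-22379 libraries lay below DMSO in CAL62 and above it in 8505c, without overlap. The log2 fold changes were -0.77, adjusted p = 0.00848, in CAL62 and 2.17, adjusted p = 0.00011, in 8505c, and the difference between lines was -2.94 ± 0.27 (SE, adjusted p = 0.00013). The 8505c call and the difference held without each library, and the CAL62 call was lost without CAL62 10 µM DEL-22379 replicate 2 (-0.71, adjusted p = 0.0537) or CAL62 DMSO replicate 2 (-0.65, adjusted p = 0.0504). With U0126 SBF2-AS1 rose in 8505c (1.64, adjusted p = 0.00026) and was not called in CAL62 (-0.11, adjusted p = 0.721). SBF2 fell with 10 µM DEL-22379 in both lines, with 421 and 639 in CAL62, against 957 and 780.0 with DMSO (-0.73, adjusted p = 0.0134), and 796 and 1161 in 8505c, against 1942 and 1777 with DMSO (-0.95, adjusted p = 0.00953). The CAL62 call on SBF2 was lost without CAL62 10 µM DEL-22379 replicate 1 (-0.43, adjusted p = 0.119) or CAL62 DMSO replicate 1 (-0.59, adjusted p = 0.101), and the 8505c call without 8505c 10 µM DEL-22379 replicate 1 (-0.68, adjusted p = 0.117) or 8505c DMSO replicate 1 (-0.89, adjusted p = 0.0718).

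LOXL1-AS1 and VIM-AS1, named after genes of the matrix and the cytoskeleton, each fell with its partner in 1 line. LOXL1 encodes an enzyme that cross-links elastin, and LOXL1-AS1 shares 335 exon bases with it. In CAL62 with 10 µM DEL-22379, LOXL1-AS1 had 161 and 108 normalized counts, against 329 and 267 with DMSO, and LOXL1 had 264 and 335, against 1519 and 2693 with DMSO. Both fell (-1.16, adjusted p = 0.00207, and -2.76, adjusted p = 8.6e-05) without overlap, and both calls held without each library. VIM encodes the intermediate filament protein vimentin, and VIM-AS1, chosen after its values were seen, shares 641 exon bases with it. In 8505c with 10 µM DEL-22379, VIM-AS1 had 134 and 114, against 313 and 265 with DMSO, and VIM had 64275 and 63137, against 135663 and 119758 with DMSO. Both fell (-1.21, adjusted p = 0.00245, and -1.0, adjusted p = 0.00061), calls that held without each library. In CAL62 VIM rose (1.04, adjusted p = 9.7e-05) and VIM-AS1, at 161 and 182, against 147 and 131 with DMSO, was not called (0.30, adjusted p = 0.265).

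MYLK-AS1 and LPP-AS2, also chosen after their values were seen, belong to genes of contractility and focal adhesions. MYLK encodes myosin light chain kinase. MYLK-AS1 had 10.2 and 25.8 normalized counts in CAL62 with 10 µM DEL-22379, against 41.5 and 78.5 with DMSO (-1.75, adjusted p = 0.0109), and MYLK also fell (-1.60, adjusted p = 0.00103). The MYLK-AS1 call was lost without CAL62 10 µM DEL-22379 replicate 1 (-1.12, adjusted p = 0.0945) or CAL62 DMSO replicate 2 (-1.29, adjusted p = 0.0788). MYLK rose with U0126 in CAL62 (2.96, adjusted p = 1.7e-05) and with 10 µM DEL-22379 in 8505c (1.91, adjusted p = 0.00141), where MYLK-AS1 was not called (adjusted p = 0.89 and 0.607, limma). LPP-AS2 had 154 and 112 in CAL62 with U0126, against 42.8 and 48.9 with DMSO, and LPP had 3409.6 and 4187, against 1543 and 2239.5 with DMSO. Both rose without overlap (1.5, adjusted p = 0.00301, and 1.02, adjusted p = 0.00264), calls that held without each library.

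Of the members called in 8505c with U0126, HHIP-AS1 had the lowest fold change and LMNTD2-AS1 the highest. HHIP encodes an inhibitor of Hedgehog ligands, and HHIP-AS1 shares 178 exon bases with it. HHIP-AS1 had 37.4 and 10.4 normalized counts in 8505c with U0126, against 145 and 128 with DMSO, and HHIP had 120.1 and 72.9, against 2171 and 1937 with DMSO. Both fell (-2.71, adjusted p = 0.0091, and -4.44, adjusted p = 7.9e-05), and the HHIP-AS1 call was lost without 8505c DMSO replicate 1 (-2.63, adjusted p = 0.0679), 8505c DMSO replicate 2 (-2.80, adjusted p = 0.0513) or 8505c U0126 replicate 2 (-1.84, adjusted p = 0.107). LMNTD2-AS1 had 284 and 214 in CAL62 with U0126, against 25.4 and 51.7 with DMSO (2.73, adjusted p = 0.0178), and 24.9 and 48.6 in 8505c, against 6.84 and 2.16 with DMSO (2.85, adjusted p = 0.0284). It was above DMSO in both lines, and the CAL62 call was lost without CAL62 DMSO replicate 1 (2.23, adjusted p = 0.145), CAL62 U0126 replicate 1 (2.53, adjusted p = 0.0944) or CAL62 U0126 replicate 2 (2.93, adjusted p = 0.0629) and the 8505c call without 8505c DMSO replicate 1 (3.51, adjusted p = 0.0514), 8505c DMSO replicate 2 (2.19, adjusted p = 0.192), 8505c U0126 replicate 1 (3.32, adjusted p = 0.0698) or 8505c U0126 replicate 2 (2.38, adjusted p = 0.199).

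CARD8-AS1 and SLFNL1-AS1 fell with U0126 in 8505c, calls that held without each library. CARD8-AS1 was also called lower with U0126 in CAL62, a call lost in 2 of the 16 fits that each left out 1 library. CARD8 encodes an inflammasome sensor, and its antisense RNA shares 3 exon bases with it. In 8505c CARD8-AS1 had 51.5 and 46.9 normalized counts with U0126 and 84.6 and 58.4 with 10 µM DEL-22379, against 179 and 203 with DMSO. Both groups lay below DMSO (log2 fold changes -1.93, adjusted p = 0.0024, and -1.43, adjusted p = 0.0133), and the DEL-22379 call was lost without 8505c 10 µM DEL-22379 replicate 2 (-1.16, adjusted p = 0.0737), 8505c DMSO replicate 1 (-1.52, adjusted p = 0.0608) or 8505c DMSO replicate 2 (-1.33, adjusted p = 0.0911). SLFNL1-AS1 had 34.3 and 29.5 with U0126, against 145 and 104 with DMSO (-1.91, adjusted p = 0.00408). HLA-F-AS1, chosen after its values were seen, rose with 10 µM DEL-22379 in 8505c, where it had 108 and 106, against 33.0 and 30.2 with DMSO (1.73, adjusted p = 0.00223), and this call held without each library. HLA-F has near-identical relatives in the HLA family, so its own counts are uncertain.

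TRHDE-AS1 was below DMSO with both inhibitors in both lines. TRHDE encodes an enzyme that degrades thyrotropin-releasing hormone, and TRHDE-AS1 lies within it with 793 shared exon bases. In CAL62 TRHDE-AS1 had 1.28 and 8.26 normalized counts with 10 µM DEL-22379 and 0.91 and 5.36 with U0126, against 18.7 and 16.6 with DMSO. In 8505c it had 115 and 101 with 10 µM DEL-22379 and 133 and 125 with U0126, against 637 and 505 with DMSO. The log2 fold changes in CAL62 were -2.02, adjusted p = 0.024, with DEL-22379 and -2.42, adjusted p = 0.0114, with U0126, and in 8505c -2.39, adjusted p = 0.0245, and -2.13, adjusted p = 0.0409. The CAL62 calls were lost without CAL62 10 µM DEL-22379 replicate 1 (-1.01, adjusted p = 0.214), CAL62 DMSO replicate 1 (-1.94, adjusted p = 0.094) or CAL62 DMSO replicate 2 (-2.10, adjusted p = 0.0535) for DEL-22379 and without CAL62 DMSO replicate 1 (-2.34, adjusted p = 0.0706) or CAL62 U0126 replicate 1 (-1.55, adjusted p = 0.117) for U0126. The 8505c calls were lost without 8505c 10 µM DEL-22379 replicate 1 (-2.48, adjusted p = 0.126), 8505c 10 µM DEL-22379 replicate 2 (-2.29, adjusted p = 0.0887), 8505c DMSO replicate 1 (-2.22, adjusted p = 0.133) or 8505c DMSO replicate 2 (-2.55, adjusted p = 0.0922) for DEL-22379 and in 8 of the 16 fits that each left out 1 library (adjusted p up to 0.198) for U0126. TRHDE had 0 and 6.19 in CAL62 with 10 µM DEL-22379 and 4.53 and 1.79 with U0126, against 44.2 and 32.3 with DMSO. It was called lower in both (adjusted p = 0.0009 and 0.003, limma), at levels so near 0 that no fold is given, and the fitted values of TRHDE-AS1 in CAL62 likewise depend on the 1 added before the logarithm.

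ENTPD1-AS1 and NRSN2-AS1, both chosen after their values were seen, are named after an ectonucleotidase gene and a neurensin gene. With U0126, ENTPD1-AS1 had 495 and 579.7 normalized counts in CAL62, against 1162 and 972 with DMSO (-0.99, adjusted p = 0.00112), and 446 and 455 in 8505c, against 849 and 831 with DMSO (-0.90, adjusted p = 0.00493). It fell in both, and these calls held without each library. It also fell with 10 µM DEL-22379 in CAL62 (-0.54, adjusted p = 0.0261), lost without CAL62 10 µM DEL-22379 replicate 2 (-0.32, adjusted p = 0.23) or CAL62 DMSO replicate 1 (-0.41, adjusted p = 0.173), and in 8505c (-0.69, adjusted p = 0.019), lost without 8505c 10 µM DEL-22379 replicate 1 (-0.65, adjusted p = 0.132), 8505c DMSO replicate 1 (-0.68, adjusted p = 0.099) or 8505c DMSO replicate 2 (-0.71, adjusted p = 0.089). NRSN2-AS1 had 376 and 435 in CAL62 with U0126, against 96.4 and 183 with DMSO (1.60, adjusted p = 0.0038), a call lost without CAL62 DMSO replicate 1 (1.14, adjusted p = 0.0535). For 8505c the values were 295 and 340.2 with U0126, against 93.4 and 117 with DMSO (1.59, adjusted p = 0.00877), a call lost without 8505c DMSO replicate 1 (1.43, adjusted p = 0.0765) or 8505c U0126 replicate 2 (1.49, adjusted p = 0.0796). It rose with 10 µM DEL-22379 in CAL62 (1.15, adjusted p = 0.0181), lost without CAL62 10 µM DEL-22379 replicate 2 (0.88, adjusted p = 0.143) or CAL62 DMSO replicate 1 (0.70, adjusted p = 0.179), and in 8505c (1.17, adjusted p = 0.0355), lost in 8 of the 16 fits that each left out 1 library (adjusted p up to 0.18). Both inhibitors were set against the same DMSO libraries in each line.

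Most of the other members with the largest changes in CAL62 rested on few counts or on uneven replicates. SLC5A4-AS1 had 0 and 20.6 normalized counts with 10 µM DEL-22379, against 88.3 and 133 with DMSO. It fell (-4.56, adjusted p = 0.00433), but with 1 library at 0 the fitted value depends on the 1 added before the logarithm. JMJD1C-AS1 had 1.28 and 11.3 with 10 µM DEL-22379, against 20.1 and 41.5 with DMSO (-2.50, adjusted p = 0.0148), and the call was lost without CAL62 10 µM DEL-22379 replicate 1 (-1.28, adjusted p = 0.133) or CAL62 DMSO replicate 2 (-1.99, adjusted p = 0.0857). With U0126, RUNDC3A-AS1 had 112 and 130.4, against 5.35 and 60.9 with DMSO (2.62, adjusted p = 0.0417), a call lost in 11 of the 16 fits that each left out 1 library (adjusted p up to 0.455). SRP14-AS1 and DLGAP1-AS1 had the same pattern, since DMSO replicate 1 was below replicate 2 for each. SRP14-AS1 had 60.69 and 50.02 with U0126, against 5.35 and 19.4 with DMSO (2.30, adjusted p = 0.0143), a call lost without CAL62 DMSO replicate 1 (1.46, adjusted p = 0.173), CAL62 U0126 replicate 1 (2.16, adjusted p = 0.0776) or CAL62 U0126 replicate 2 (2.44, adjusted p = 0.0558). DLGAP1-AS1 had 101 and 139, against 10.7 and 59.1 with DMSO (2.18, adjusted p = 0.0281), a call lost without CAL62 DMSO replicate 1 (1.00, adjusted p = 0.324), CAL62 U0126 replicate 1 (2.40, adjusted p = 0.0713) or CAL62 U0126 replicate 2 (1.95, adjusted p = 0.146). LMO7-AS1 had 96.0 and 86.7 with U0126 and 6.38 and 13.4 with 10 µM DEL-22379, against 18.7 and 24 with DMSO. It rose with U0126 (2.05, adjusted p = 0.00207), a call that held without each library, and fell with DEL-22379 (-1.11, adjusted p = 0.0426), a call lost in 9 of the 16 fits that each left out 1 library (adjusted p up to 0.266). PLBD1-AS1, RAMP2-AS1 and TTN-AS1 were called higher in 8505c with 10 µM DEL-22379 at values no higher than 15.3 there, with DMSO libraries between 0 and 3.24, so no fold is given. These 3 calls were lost in 3 to 8 of the 16 fits that each left out 1 library.

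The calls on antisense RNAs were then set beside those on their partners, over the 221 tested pairs. In CAL62 with 10 µM DEL-22379, 22 pairs moved together, 9 with both genes called higher and 13 with both lower, and 7 moved in opposite directions. Only the antisense RNA was called in 43 pairs, only the partner in 55 and neither in 94. With U0126 in CAL62, 14 pairs moved together, 10 higher and 4 lower, 9 moved in opposite directions, 39 had only the antisense RNA called and 51 only the partner. In 8505c the same-direction and opposite pairs numbered 4 and 5 with 10 µM DEL-22379, and 6 and 2 with U0126, while only the antisense RNA was called in 24 and 13. With 10 µM DEL-22379 the partner was not called in 59.7% of the CAL62 pairs with a called member, against 62% of all pairs, and in 72.7% of those in 8505c, against 81%. With U0126 these shares were 62.9% in CAL62, against 66.5% of all pairs, and 61.9% in 8505c, against 84.2%. Whether called or not, member and partner had fold changes of the same sign in CAL62 in 53.8% of pairs with 10 µM DEL-22379 and in 54.8% under U0126, and in 8505c in 52.0% and 55.2%.

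**Figure D3:**
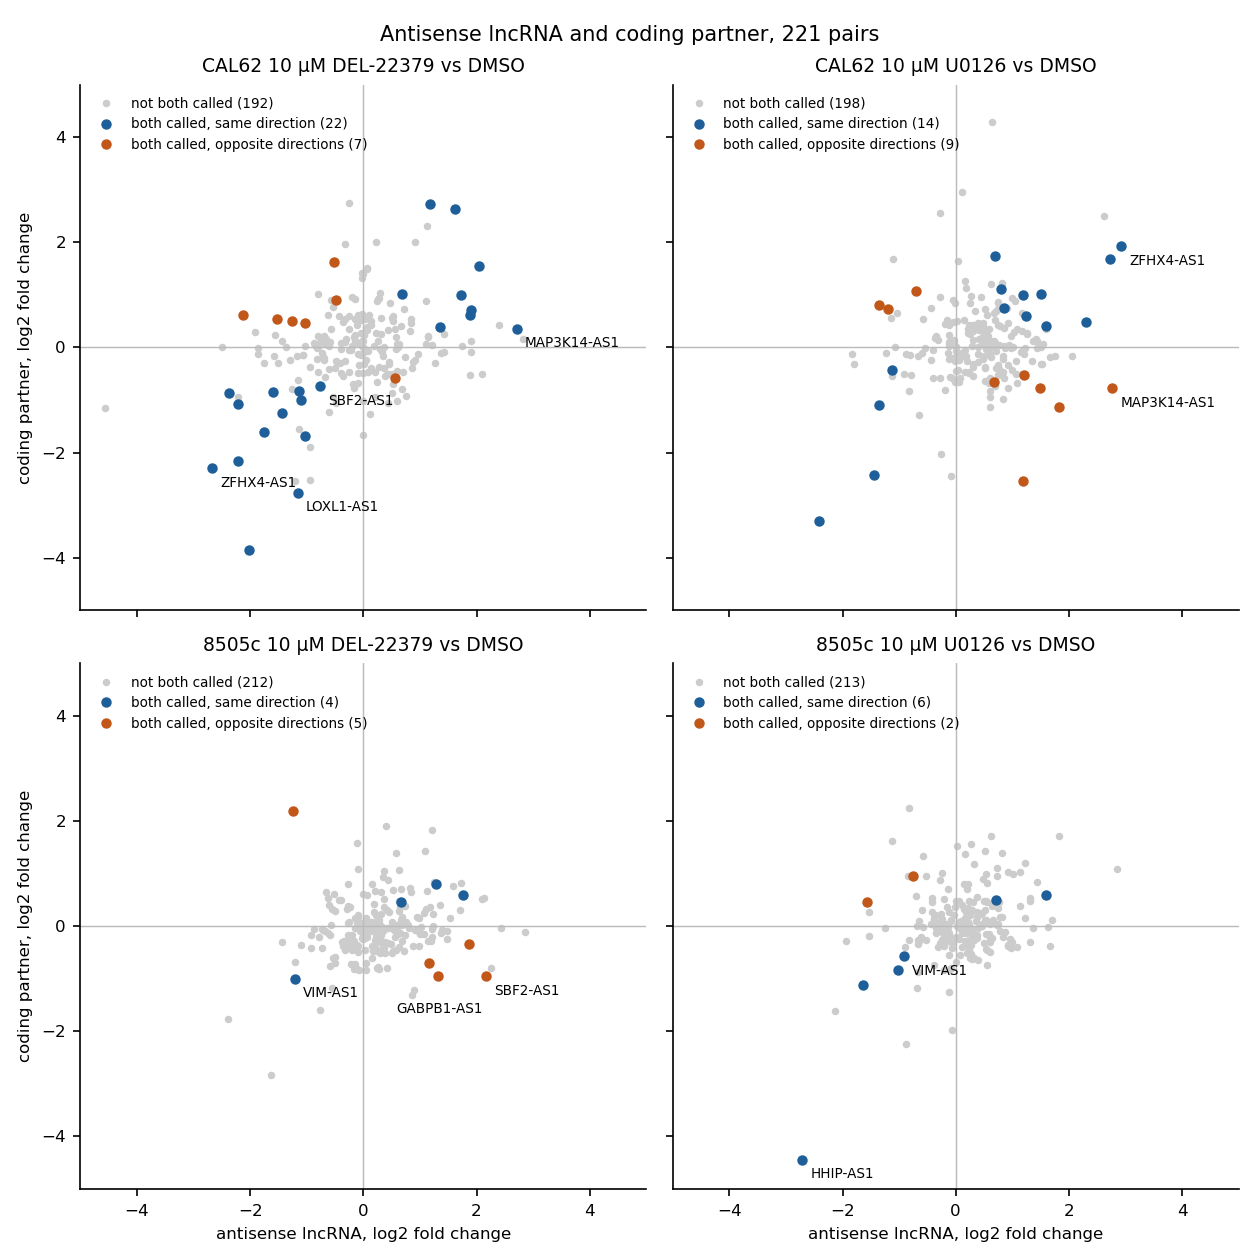
Log2 fold change against DMSO of the antisense lncRNA (horizontal axis) and of its coding partner (vertical axis) for 221 pairs, one panel per line and inhibitor at 10 µM; blue points are pairs with both genes called in the same direction, orange points pairs called in opposite directions and grey points all others. The points spread over all 4 quadrants, with 22 blue and 7 orange points in CAL62 with DEL-22379 and 14 and 9 with U0126.

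Of the pairs called in the same direction, 9 kept both calls without each library. In CAL62 with 10 µM DEL-22379 these were the pairs of LOXL1, ZFHX4, ZBED3, BOLA3, PTPRG and TDRKH, in CAL62 with U0126 those of ZFHX4 and LPP, and in 8505c with 10 µM DEL-22379 that of VIM. ZBED3-AS1, chosen after its values were seen, had 24.2 and 34.1 normalized counts in CAL62 with 10 µM DEL-22379, against 131 and 144 with DMSO, and ZBED3 had 105 and 195, against 601 and 677 with DMSO. Both fell (-2.22, adjusted p = 0.0002, and -2.15, adjusted p = 2.8e-05). ZBED3 encodes a zinc finger protein, and the pair shares 213 exon bases. TDRKH encodes a tudor-domain protein of the piRNA pathway, and TDRKH-AS1, also chosen after its values were seen, had 95.7 and 107 with 10 µM DEL-22379, against 18.7 and 30.5 with DMSO. Both genes of the TDRKH pair rose (2.04, adjusted p = 0.00139, and TDRKH 1.54, adjusted p = 1e-05). BOLA3-AS1, chosen likewise, had 7.66 and 11.3 with 10 µM DEL-22379, against 28.1 and 25.9 with DMSO (-1.43, adjusted p = 0.00252), and BOLA3, a gene of iron-sulfur cluster assembly, fell with it (-1.25, adjusted p = 0.00077). The same-direction pairs of the 4 comparisons numbered 46 in all and 25 without CAL62 DMSO replicate 1.

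Of the 23 opposite pairs, 1 kept both calls without each library, MAP3K14 in CAL62 with U0126. The opposite pairs numbered 14 or 15 without 8505c DMSO replicate 1 or 2, 9 without DMSO replicate 1 of CAL62 and 15 without its U0126 replicate 1. In 8505c with 10 µM DEL-22379 they were the pairs of GABPB1, SBF2, PRKCQ, PRKAR2A and DICER1, and with U0126 those of ARHGEF35 and PTOV1. PTOV1-AS2 had 26.5 and 35.6 normalized counts in 8505c with U0126, against 100.3 and 86.4 with DMSO (-1.57, adjusted p = 0.0363), and PTOV1 3104 and 3239.6, against 2186 and 2447 with DMSO (0.46, adjusted p = 0.0357). The first call was lost without 8505c DMSO replicate 1 (-1.46, adjusted p = 0.177), 8505c DMSO replicate 2 (-1.67, adjusted p = 0.114), 8505c U0126 replicate 1 (-1.36, adjusted p = 0.197) or 8505c U0126 replicate 2 (-1.77, adjusted p = 0.107), and the second in 6 of the 16 fits that each left out 1 library (adjusted p up to 0.223). In CAL62 with 10 µM DEL-22379 they were those of THUMPD3, WAC, ZNF674, PITPNA, SP2, PRR7 and MORC2, of which only THUMPD3 had the antisense RNA higher (0.56 beside -0.59 for THUMPD3). These 2 calls were lost without CAL62 10 µM DEL-22379 replicate 2 (0.48, adjusted p = 0.0503) and without CAL62 DMSO replicate 1 (-0.43, adjusted p = 0.0518). The other 6 had antisense log2 fold changes from -2.12 to -0.48 and partner values from 0.46 to 1.63. The SP2 call was lost without CAL62 10 µM DEL-22379 replicate 1 (0.46, adjusted p = 0.0754), CAL62 10 µM DEL-22379 replicate 2 (0.46, adjusted p = 0.0976) or CAL62 DMSO replicate 2 (0.36, adjusted p = 0.141), and the SP2-AS1 call without CAL62 10 µM DEL-22379 replicate 2 (-0.75, adjusted p = 0.133) or CAL62 DMSO replicate 1 (-0.89, adjusted p = 0.112). That on PRR7 was lost without CAL62 10 µM DEL-22379 replicate 1 (0.50, adjusted p = 0.071) or CAL62 DMSO replicate 1 (0.50, adjusted p = 0.0939), that on PRR7-AS1 without CAL62 10 µM DEL-22379 replicate 1 (-1.32, adjusted p = 0.133), CAL62 10 µM DEL-22379 replicate 2 (-1.72, adjusted p = 0.0756) or CAL62 DMSO replicate 1 (-1.14, adjusted p = 0.209), and that on PITPNA without CAL62 DMSO replicate 1 (0.37, adjusted p = 0.0534). WAC had 9685 and 12352 normalized counts, against 6285 and 5469.5 with DMSO, while WAC-AS1 had 320.4 and 346, against 423 and 512 with DMSO, a call lost in 12 of the 16 fits that each left out 1 library (adjusted p up to 0.23). ZNF674-AS1, which lies head to head with ZNF674 and 36 bases from its start, lost its call in 14 of the 16 fits that each left out 1 library (adjusted p up to 0.335).

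In CAL62 with U0126 the 9 opposite pairs included those of MAP3K14, CCDC18, AZIN1, PAXIP1, VASH1, NR2F1 and PTPRG. The first 4 of these had the antisense RNA higher and the partner lower. AZIN1-AS1 and PAXIP1-AS2 had log2 fold changes of 1.20 and 0.67, beside -0.53 for AZIN1 and -0.66 for PAXIP1. The AZIN1-AS1 call was lost without CAL62 DMSO replicate 1 (1.14, adjusted p = 0.119), CAL62 U0126 replicate 1 (1.22, adjusted p = 0.0791) or CAL62 U0126 replicate 2 (1.17, adjusted p = 0.0998), and the PAXIP1-AS2 call in 10 of the 16 fits that each left out 1 library (adjusted p up to 0.19). The AZIN1 and PAXIP1 calls were each lost without CAL62 DMSO replicate 1 (adjusted p = 0.184 and 0.287) and without either U0126 replicate. VASH1-AS1, with 1044 shared exon bases, had 415 and 347 with U0126, against 683 and 562 with DMSO (-0.71, adjusted p = 0.0377), and VASH1, an inhibitor of angiogenesis, moved the other way (1.08, adjusted p = 0.0367). The VASH1-AS1 call was lost in 6 of the 16 fits that each left out 1 library (adjusted p up to 0.24), and the VASH1 call without CAL62 DMSO replicate 1 (0.64, adjusted p = 0.332), CAL62 U0126 replicate 1 (1.11, adjusted p = 0.112) or CAL62 U0126 replicate 2 (1.06, adjusted p = 0.143).

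**Figure D4:**
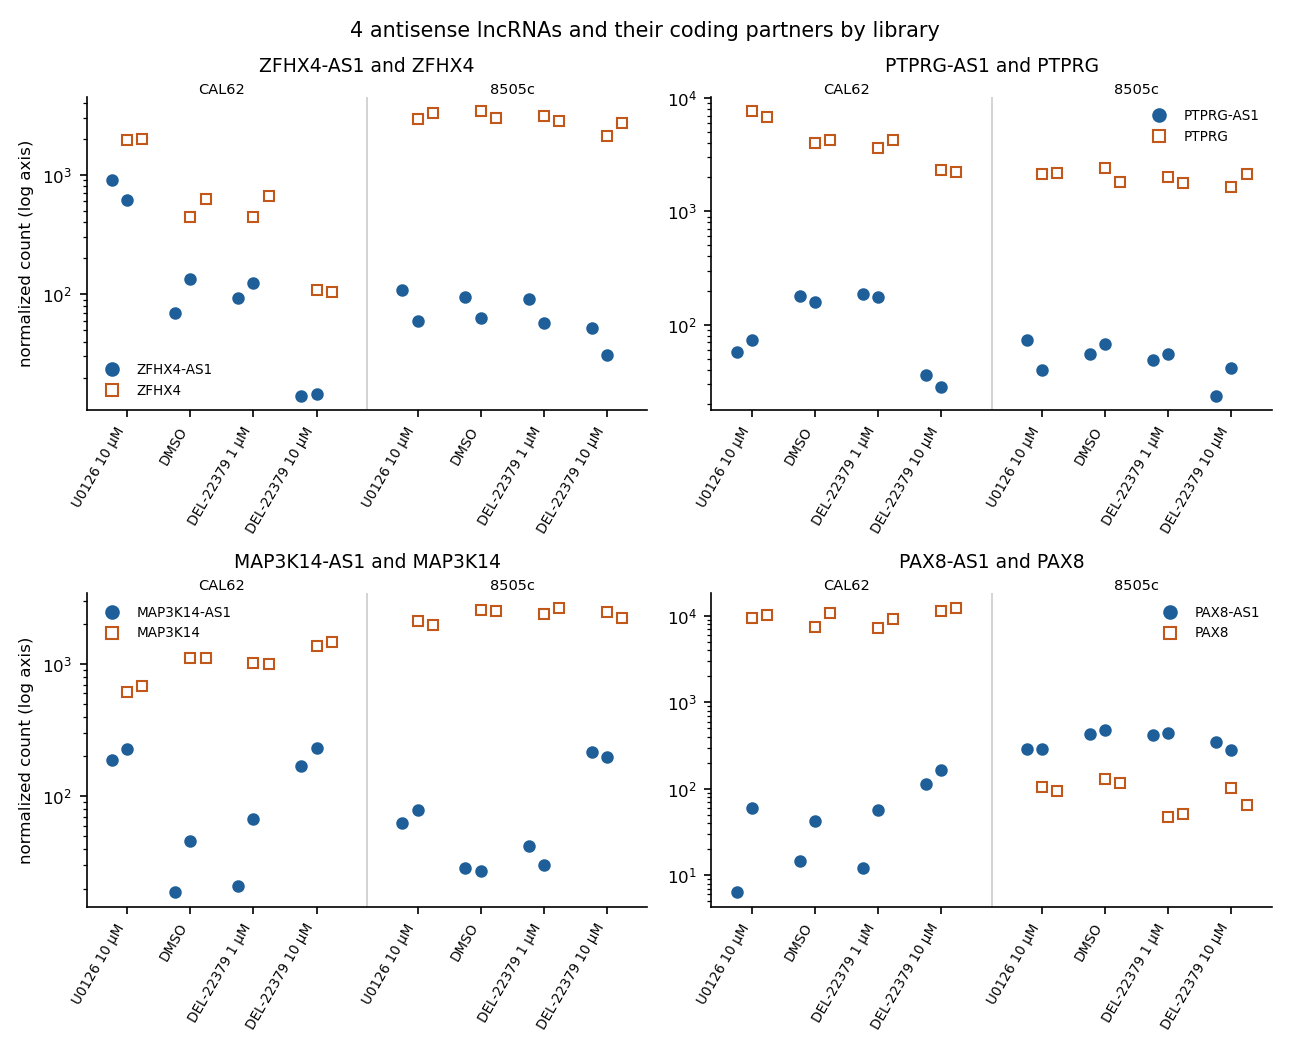
Normalized counts (log axis) of 4 antisense lncRNAs (filled circles) and their coding partners (open squares) in each of the 16 libraries, one point per library, with CAL62 left and 8505c right in each panel. ZFHX4-AS1 and ZFHX4 move together in CAL62, PTPRG-AS1 and PTPRG apart with U0126, and PAX8-AS1 is lower in CAL62 than in 8505c whereas PAX8 is higher.

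The calls were also counted by how member and partner lie to each other, with no test between the arrangements. Of the 112 members that overlap the partner at the 5′ ends, 17 were called higher and 16 lower in CAL62 with 10 µM DEL-22379 (15.2% and 14.3%, beside 11.9% and 19.8% of all members), and 32 higher and 5 lower with U0126 (28.6% and 4.46%, beside 21.8% and 5.76% of all members). Of the 48 that overlap at the 3′ ends, 5 were higher and 14 lower with 10 µM DEL-22379 (10.4% and 29.2%), and 7 higher and 3 lower with U0126 (14.6% and 6.25%). Of the 30 head-to-head members without overlap, 0 were higher and 7 lower (23.3%) with 10 µM DEL-22379, and 3 higher and 2 lower with U0126 (10% and 6.67%). With U0126 in CAL62, 6 of the 9 opposite pairs overlapped at the 3′ ends and 3 at the 5′ ends, and all 9 share exon bases. In the same line with 10 µM DEL-22379, 3 of the 7 opposite pairs share no exon base, SP2, PRR7 and ZNF674, as do 3 of the 22 same-direction pairs. Of all 221 tested pairs, 42 overlap at the 3′ ends and 110 at the 5′ ends, and 58 share no exon base. Whether the called pairs depart from these shares was not tested.

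At 1 µM DEL-22379 no member was called in either line by limma or by edgeR, and DESeq2 called 1 member in 8505c and 0 in CAL62. At an unadjusted p below 0.05 there were 10 members in 8505c and 1 in CAL62. Over all genes 0.0157% were called in 8505c, 0.00523% higher and 0.0105% lower, and 0.0% in CAL62. GABPB1-AS1 had 446 and 647 normalized counts in CAL62 with 1 µM, against 377 and 543 with DMSO, and the groups overlapped. SBF2-AS1 had 351 and 332 in 8505c with 1 µM, against 149 and 231 with DMSO. Its 1 µM libraries lay above DMSO and below the 10 µM libraries, and the difference from DMSO was not called (log2 fold change 0.87, adjusted p = 0.384, limma).

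The response to 10 µM DEL-22379 differed between the lines for 19 members, tested as the CAL62 change minus the 8505c change. The difference was positive for 4 and negative for 15. Members called made up 7.82%, 1.65% positive and 6.17% negative, against 14.4% of all genes, 7.21% positive and 7.17% negative. Of the other lncRNAs 8.64% were called, 3.52% positive and 5.11% negative, so they leaned the same way. The 19 became 11 without 8505c 10 µM DEL-22379 replicate 1 and 8 without 8505c DMSO replicate 1. Under scaling to equal totals, which moved the median of all genes to -0.22, there were 40, 4 positive and 36 negative. The 6 that held without each library were SBF2-AS1, described above, VIM-AS1, CARD8-AS1, LURAP1L-AS1, RASSF8-AS1 and RPARP-AS1. VIM-AS1 (1.51) and CARD8-AS1 (2.26) fell in 8505c and were not called in CAL62, where CARD8-AS1 had 63.8 and 70.2 normalized counts with 10 µM DEL-22379, against 49.5 and 27.7 with DMSO. LURAP1L-AS1 had 76.6 and 97.0 in CAL62, against 18.7 and 33.2 with DMSO, and 50.5 and 48.7 in 8505c, against 76.3 and 82.0 with DMSO (difference 2.41, adjusted p = 0.00526).

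RASSF8-AS1, named after a Ras-association domain gene and chosen after its values were seen, was called higher in CAL62 and not in 8505c. It had 957 and 748 normalized counts in CAL62 with 10 µM DEL-22379, against 229 and 223 with DMSO, and 214 and 182 in 8505c, against 150.4 and 176 with DMSO (difference 1.62, adjusted p = 0.00172). RASSF8 differed between the lines in the same direction (1.52, adjusted p = 0.00486), and it rose in CAL62 (0.71, adjusted p = 0.0161, lost without CAL62 10 µM DEL-22379 replicate 1 (0.62, adjusted p = 0.0804) or CAL62 DMSO replicate 2 (0.45, adjusted p = 0.129)) and fell in 8505c (-0.82, adjusted p = 0.0189, lost without 8505c 10 µM DEL-22379 replicate 1 (-0.66, adjusted p = 0.172), 8505c DMSO replicate 1 (-0.88, adjusted p = 0.0729) or 8505c DMSO replicate 2 (-0.76, adjusted p = 0.114)). RPARP-AS1 had 193 and 225 in CAL62, against 613 and 649.9 with DMSO, and 161 and 152 in 8505c, against 74.1 and 136 with DMSO (difference -2.23, adjusted p = 0.00189). It fell in CAL62 (-1.60) and was not called in 8505c (0.63). Over the 221 tested pairs, the line difference had the same sign in member and partner in 55.2%, and 17.9% of the tested partners were called. In 6 of these pairs member and partner both differed between the lines in the same direction, and in 1 in opposite directions, USP3-AS1 (-2.44) with USP3 (0.77), where the member's call was lost without 8505c 10 µM DEL-22379 replicate 2 (-2.16, adjusted p = 0.0689), 8505c DMSO replicate 1 (-2.40, adjusted p = 0.0641), 8505c DMSO replicate 2 (-2.49, adjusted p = 0.0564) or CAL62 DMSO replicate 2 (-2.22, adjusted p = 0.0527) and the partner's without 8505c DMSO replicate 1 (0.71, adjusted p = 0.055).

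The response to U0126 differed between the lines for 7 members, 5 positive and 2 negative, or 2.88%. Of all genes 5.69% were called, 1.84% positive and 3.85% negative, and of the other lncRNAs 3.41%, 2.27% positive and 1.14% negative. Under quantile normalization the split was 11 positive and 2 negative. The 7 became 3 or 4 without 8505c DMSO replicate 1 or 2, 3 without 8505c U0126 replicate 2, 3 or 13 without CAL62 DMSO replicate 1 or 2, 3 or 4 without CAL62 U0126 replicate 1 or 2 and 11 without CAL62 1 µM DEL-22379 replicate 2. SBF2-AS1 (-1.75), ARHGEF35-AS1 and LIPE-AS1 held without each library. ARHGEF35-AS1, next to a guanine nucleotide exchange factor gene, had 239 and 205 normalized counts in CAL62 with U0126, against 119 and 136 with DMSO, and 541 and 508 in 8505c, against 835 and 927 with DMSO. It rose in CAL62 (0.80, adjusted p = 0.00241) and fell in 8505c (-0.75, adjusted p = 0.0081, lost without 8505c DMSO replicate 2 (-0.67, adjusted p = 0.0738) or 8505c U0126 replicate 2 (-0.70, adjusted p = 0.0788)), a difference of 1.54 ± 0.22 (SE, adjusted p = 0.00179). ARHGEF35 has a close paralog, so its counts are uncertain. LIPE-AS1, which spans the hormone-sensitive lipase gene LIPE, had 179 and 153 in CAL62 with U0126, against 509 and 358 with DMSO, and 23.4 and 28.6 in 8505c, against 11.4 and 9.72 with DMSO (difference -2.58, adjusted p = 0.00824). It was lower than DMSO in CAL62 and higher in 8505c. Its CAL62 call (-1.36) was lost without CAL62 DMSO replicate 1 (-1.11, adjusted p = 0.114) or CAL62 U0126 replicate 2 (-1.25, adjusted p = 0.0761), and its 8505c call (1.22) in 6 of the 16 fits that each left out 1 library (adjusted p up to 0.201).

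**Figure D5:**
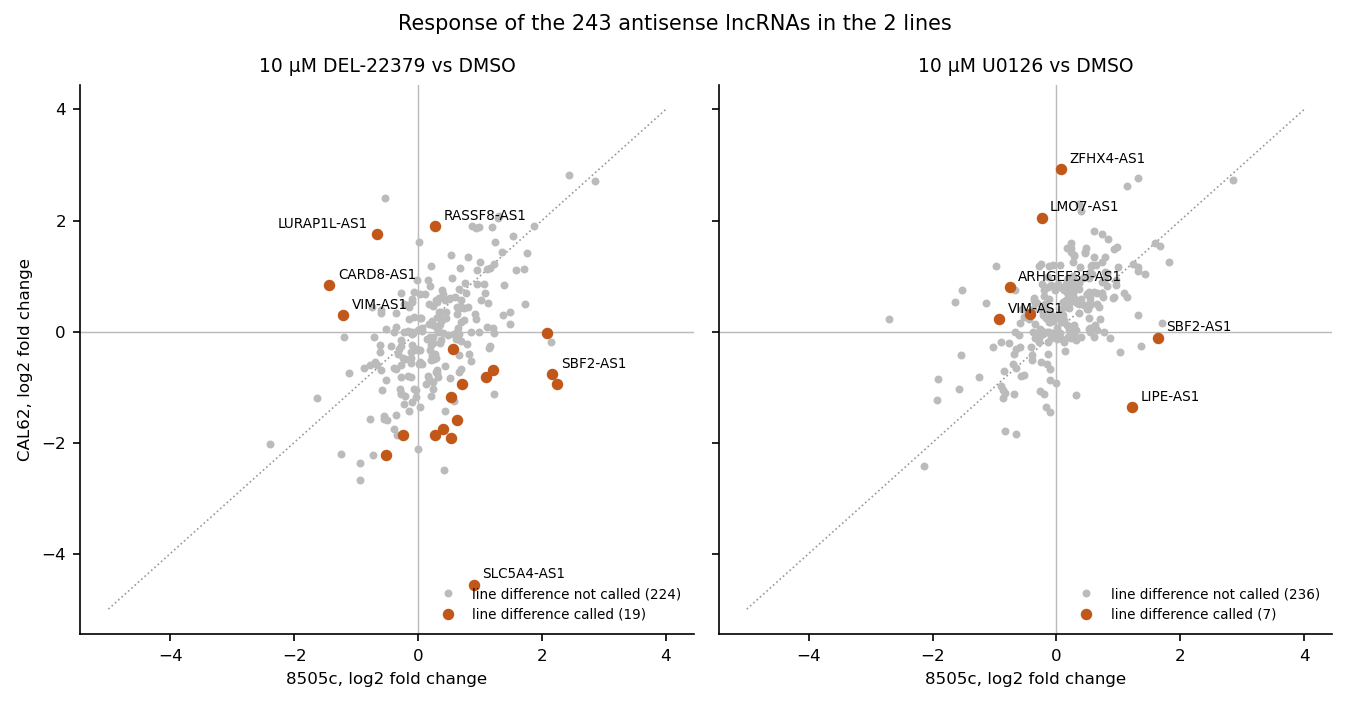
Log2 fold change of the 243 antisense lncRNAs against DMSO in CAL62 (vertical axis) and 8505c (horizontal axis), with 10 µM DEL-22379 left and 10 µM U0126 right; orange points are members whose difference between lines was called, and the dotted line marks equal change. SBF2-AS1 lies at -0.77 in CAL62 and 2.17 in 8505c with DEL-22379, and at -0.11 in CAL62 and 1.64 in 8505c with U0126.

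Between lines, which share no library, 12 members were called higher with 10 µM DEL-22379 in both, or 41.4% of the 29 in CAL62 and 48% of the 25 in 8505c, beside 17.1% and 41.3% over all genes. Another 5 were called lower in both, or 10.4% of 48 and 45.5% of 11, beside 17% and 43.5% over all genes. With U0126, 4 were higher in both, or 7.55% of the 53 in CAL62 and 50% of the 8 in 8505c, beside 22.7% and 47.2% over all genes, and 4 lower in both, or 28.6% of 14 and 26.7% of 15, beside 23.3% and 60% over all genes. These differences from all genes were not tested. 1 member was called in opposite directions with 10 µM DEL-22379, SBF2-AS1, and 2 with U0126, ARHGEF35-AS1 and LIPE-AS1.

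Set directly against each other in CAL62, U0126 and 10 µM DEL-22379 differed for 101 members, 80 higher and 21 lower with U0126. These were 41.6% of members, 32.9% higher and 8.64% lower, against 43.1% of all genes, 21.0% higher and 22.1% lower. Of the other lncRNAs 38.5% were called, 23.2% higher and 15.3% lower. ZFHX4-AS1 had a log2 difference of 5.61 ± 0.42 (SE, adjusted p = 1.3e-06), and ZBED3-AS1 (255 and 199 normalized counts with U0126, against 24.2 and 34.1 with 10 µM DEL-22379) one of 2.93, adjusted p = 1.1e-05. ST7-AS1, chosen after its values were seen, had 218 and 155 with U0126, against 14.0 and 19.6 with 10 µM DEL-22379 (3.39, adjusted p = 1.5e-05), and ST7 did not differ by the test (-0.18, adjusted p = 0.507). PAXIP1-AS2 had 246 and 238 with U0126, against 54.9 and 46.4 (2.24, adjusted p = 1.2e-05). In the other direction GABPB1-AS1 (-1.57), CARD8-AS1 (-2.07) and RASSF8-AS1 (-1.07) were lower with U0126. These calls held without each library. Of the 221 pairs, 32 were called in the same direction and 21 in opposite directions. Member and partner differed with the same sign in 52.5% of pairs, and 52.8% of the tested partners were called, beside 41.6% of members.

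In 8505c the 2 inhibitors differed for 14 members, 4 higher and 10 lower with U0126. These were 5.76% of members, 1.65% higher and 4.12% lower, against 9.94% of all genes, 5.39% higher and 4.55% lower. Of the other lncRNAs 8.64% were called, 1.82% higher and 6.82% lower. The 14 became 4 without 10 µM DEL-22379 replicate 1 and 5 without either U0126 replicate. GABPB1-AS1 had 419 and 391 normalized counts with U0126, against 1622 and 959 with 10 µM DEL-22379 (-1.62, adjusted p = 0.00305), a call that held without each library. VASH1-AS1 had 93.5 and 112, against 364 and 209 (-1.42, adjusted p = 0.00334), and this call also held. SLFNL1-AS1 had 34.3 and 29.5, against 147 and 106 (-1.94, adjusted p = 0.00535), lost without 8505c 10 µM DEL-22379 replicate 1 (-1.71, adjusted p = 0.0698) or 8505c U0126 replicate 2 (-1.84, adjusted p = 0.0525).

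The 2 lines differed in many antisense RNAs without treatment. Because a member could pass the mean of 30 through 1 line alone, these levels are a description. With DMSO, 132 members were called between CAL62 and 8505c, 81 higher and 51 lower in CAL62. These were 54.3% of members, 33.3% higher and 21.0% lower, beside 53.0% of all genes, 25.6% higher and 27.4% lower. Of the other lncRNAs 53.4% were called, 33.5% higher and 19.9% lower. Means were under 10 in 9 members in CAL62 and in 9 members in 8505c. NKX2-1-AS1, which shares 402 exon bases with the thyroid transcription factor gene NKX2-1, was at 0 in all CAL62 libraries and had 49 and 54.0 normalized counts in 8505c with DMSO, beside 3765 and 4340.1 for NKX2-1. ELFN1-AS1 and TMEM132D-AS1 were also at 0 in all CAL62 libraries and at 148 to 260.3 and 170.4 to 284 in 8505c. ZFPM2-AS1 was at 0 in CAL62, where ZFPM2 still had 57.5 and 60.9. PDE2A-AS2 was at 0 in all 8505c libraries and had 123 and 96.9 in CAL62 with DMSO.

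Between the lines with DMSO, 67 of the 221 tested pairs were called in the same direction and 18 in opposite directions. Member and partner differed with the same sign in 66.1% of pairs. PAX8-AS1 and PAX8, among the 18, stood in opposite order in the 2 lines. PAX8 is a thyroid transcription factor, and PAX8-AS1 overlaps its 3′ end with 685 shared exon bases. PAX8-AS1 had 14.7 and 42.5 normalized counts in CAL62 with DMSO, against 427 and 478 in 8505c, while PAX8 had 7445 and 10716, against 129 and 117. In CAL62 PAX8-AS1 had 114 and 164 with 10 µM DEL-22379, which was called higher than DMSO (2.40, adjusted p = 0.0471), a call lost in 11 of the 16 fits that each left out 1 library (adjusted p up to 0.277). The CAL62 replicates of PAX8-AS1 differed widely, with 6.34 and 59.9 with U0126.

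Of the 3 members of highest mean, 1 was called against DMSO. FGD5-AS1 averaged 4778 normalized counts over the 16 libraries, while FGD5 was at 0 in all but 2 libraries. FGD5-AS1 had 3925 and 4347 in CAL62 with 10 µM DEL-22379 and 3609 and 3326 with U0126, against 6117 and 3973 with DMSO, and was not called in any of the 4 comparisons at 10 µM. OIP5-AS1, also called cyrano, averaged 2423 and was not called in them either, with 2164 and 2371 in CAL62 with U0126, against 2326 and 2508 with DMSO. OIP5, which encodes a centromere protein, fell there (-2.45, adjusted p = 0.0002), with 122 and 66.1, against 633 and 387 with DMSO. THAP9-AS1 averaged 1875 and fell in CAL62 with 10 µM DEL-22379, with 1452 and 1349, against 2982 and 2183 with DMSO (-0.87, adjusted p = 0.00251).

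Of other well-known antisense RNAs, CDKN2B-AS1, also called ANRIL, had 92.4 and 48.2 normalized counts in CAL62 with U0126, against 177 and 114 with DMSO (-1.07, adjusted p = 0.0245). The call was lost without CAL62 DMSO replicate 1 (-0.76, adjusted p = 0.226) or CAL62 U0126 replicate 2 (-0.61, adjusted p = 0.242). Its partner CDKN2B, a cyclin-dependent kinase inhibitor gene, was at 0 in all CAL62 libraries. MCM3AP-AS1 fell in CAL62 with 10 µM DEL-22379 (-0.59, adjusted p = 0.0298), a call lost without CAL62 10 µM DEL-22379 replicate 1 (-0.55, adjusted p = 0.096), CAL62 10 µM DEL-22379 replicate 2 (-0.63, adjusted p = 0.0772) or CAL62 DMSO replicate 2 (-0.39, adjusted p = 0.201). MAPKAPK5-AS1 was not called in any comparison with DMSO at 10 µM (adjusted p from 0.199 to 0.793, limma).

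Just inside the mean of 30 stood FUT8-AS1 (30.4), RNF213-AS1 (30.3) and YTHDF3-AS1 (30.1), and just outside it PTGES2-AS1 (29.9), STARD4-AS1 (29.9) and CCDC28A-AS1 (29.8). FUT8-AS1 fell in 8505c with U0126 (14.8 and 14.8 normalized counts, against 36.5 and 63.7 with DMSO, -1.64, adjusted p = 0.0267), as did FUT8, a fucosyltransferase gene (-1.11, adjusted p = 0.00205). The FUT8-AS1 call was lost without 8505c DMSO replicate 2 (-1.25, adjusted p = 0.192), 8505c U0126 replicate 1 (-1.64, adjusted p = 0.118) or 8505c U0126 replicate 2 (-1.64, adjusted p = 0.132).

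ZMIZ1-AS1, below the mean of 30, had 10.2 and 16.5 normalized counts in CAL62 with 10 µM DEL-22379 and 3.62 and 7.15 with U0126, against 0 and 0.92 with DMSO. In 8505c ZMIZ1-AS1 had 10.6 and 13.8 with 10 µM DEL-22379 and 13.2 and 13.0 with U0126, against 0 and 0 with DMSO. It was above DMSO in every library at 10 µM and at or near 0 with DMSO, so no fold is given. ZMIZ1, a transcriptional coregulator gene, had 1108 and 1309.6 in CAL62 with 10 µM DEL-22379 and 1166 and 1323 with U0126, against 111 and 414 with DMSO. It rose there with both inhibitors (2.48, adjusted p = 0.00412, and 2.53, adjusted p = 0.00458), calls that held without each library. In 8505c ZMIZ1 had 1452 and 1439 with 10 µM DEL-22379 and 2528 and 2443 with U0126, against 1167 and 1063 with DMSO. Both treated groups lay above DMSO without overlap, but neither was called (0.38, adjusted p = 0.683, and 1.16, adjusted p = 0.183, limma). The SE of 0.53 was the same in both lines, as the variance was fitted over all 16 libraries, and the CAL62 DMSO replicates lay far apart. The missing call therefore does not show that ZMIZ1 was unchanged in 8505c.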

How the data were processed

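RNA of 16 cultures was sequenced as stranded mRNA libraries with 51-base reads, and each library was assigned to its line, treatment and replicate by its title. The authors deposited 1 table of normalized counts aligned to GRCh38, a signal in which gene counts had been divided by 1 size factor per library, as DESeq2 does. For the aligner, the counter, its strand setting and the annotation no name was given in the sources used here. Whole reads were recovered from the step between low values, where 100% of values under 200 were whole within 0.02 reads, and 1 read was worth 0.780 to 1.34 normalized counts.

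Genes that reached 10 normalized counts in 2 or more libraries were tested with limma 3.58.1 in R 4.3.3 on log2(value + 1), with a trend and robust variance over all 16 libraries, so fold changes of low genes are understated. P-values were adjusted by Benjamini-Hochberg over 19127 genes, and a gene was called at an adjusted p under 0.05. The test was tried on simulated data. On the recovered reads, edgeR 4.0.16 called 2837 genes higher and 3472 lower in CAL62 with 10 µM DEL-22379, 2540 and 2824 with U0126, and in 8505c 1256 and 1258, and 1260 and 1203. The members of the plots and their sequences were read with Python 3.11.15, pandas 2.3.3 and matplotlib 3.10.9, positions from GENCODE 29 and promoters from RefSeq.

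Genes were named by a rule: in each comparison with DMSO the 8 called members of largest absolute fold change, every pair called in opposite directions, the 3 members of highest mean, the members nearest 30, the 4 with the largest line difference either way, and a list of known antisense RNAs, with partners. Members named beyond it are marked where they appear, except for those with a called difference between lines. The members and lists were chosen with earlier results of these data known. Of the known list, ZEB2-AS1, AFAP1-AS1, HIF1A-AS2, EGFR-AS1, FOXP4-AS1, VPS9D1-AS1 and STARD4-AS1 were under the mean of 30. Of the pairs the rule names, 2 are not reported here.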

Additional observations from a re-analysis of the deposited data

Results flagged for a closer look

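Antisense RNAs are listed here because their response differed between the lines by a test of the difference itself, the CAL62 log2 fold change minus the 8505c one (limma, adjusted p under 0.05). With 10 µM DEL-22379 the positive differences were 2.41 for LURAP1L-AS1, 2.26 for CARD8-AS1, 1.62 for RASSF8-AS1 and 1.51 for VIM-AS1. The negative differences over 2 in size were -5.45 for SLC5A4-AS1, -3.19 for PLBD1-AS1, -2.94 for SBF2-AS1, -2.44 for USP3-AS1, -2.23 for RPARP-AS1, -2.14 for MYLK-AS1, -2.14 for ST7-AS1 and -2.11 for TTN-AS1. The others were -1.91 for RHPN1-AS1, -1.90 for BAALC-AS1, -1.71 for MELTF-AS1, -1.71 for ZBED3-AS1, -1.66 for MBNL1-AS1, -1.63 for SLC25A21-AS1 and -0.88 for CKMT2-AS1. The values of TTN-AS1 and PLBD1-AS1 rest on 8505c libraries of few counts, and that of SLC5A4-AS1 on a CAL62 library at 0, so they depend on the 1 added before the logarithm.

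With U0126 the differences were 2.86 for ZFHX4-AS1, 2.29 for LMO7-AS1, 1.54 for ARHGEF35-AS1, 1.14 for VIM-AS1, 0.73 for NUTM2A-AS1, -1.75 for SBF2-AS1 and -2.58 for LIPE-AS1. The 13 differences with 10 µM DEL-22379 and the 4 with U0126 that the report does not give as held were each lost without at least 1 library.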

How the results depend on the processing

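Of 466 calls on named antisense RNAs and partners, 321 passed in every refit that kept all libraries and tested the gene. In every fit without 1 library 242 passed. No refit that tested the gene reversed a call. Without 1 library the called members numbered 45 to 79 in CAL62 with 10 µM DEL-22379, 16 to 85 with U0126, 6 to 42 in 8505c with 10 µM DEL-22379, 6 to 29 with U0126 and 0 in each fit at 1 µM in both lines. They numbered 8 to 23 and 3 to 13 for the line differences with 10 µM DEL-22379 and U0126, 70 to 105 and 4 to 18 for U0126 against DEL-22379 in CAL62 and 8505c, and 105 to 133 between the untreated lines. Pairs in the same direction numbered 25 to 48, and in opposite directions 9 to 29.

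With the libraries of 1 line or of the groups compared only, the calls became 47 and 34 in CAL62 with 10 µM DEL-22379 and U0126, 63 and 47 in 8505c, 9 for the line difference with DEL-22379 and 32 for U0126 against DEL-22379 in 8505c. Replicate numbers were not treated as pairs, since there are 2 per group and the labels do not say what a number marks. Deviations of same-numbered libraries correlated at 0.22 to 0.504 in CAL62 and 0.088 to 0.122 in 8505c. With the replicate number as a block the calls became 61 and 48 in 8505c with 10 µM DEL-22379 and U0126, 55 and 18 for the line differences and 36 for U0126 against DEL-22379 in 8505c, with 80 pairs in the same and 50 in opposite directions. At the study's cut-offs (adjusted p under 0.01 with log2 fold changes over 1.5, which the study set on shrunken values and which were put here on the unshrunken limma values) there were 28 and 9 in CAL62, 5 and 6 in 8505c, 6 and 3 for the line differences, 38 and 3 for U0126 against DEL-22379 in CAL62 and 8505c, 58 between the untreated lines, and 5 pairs in the same and 0 in opposite directions. Among antisense RNAs with a mean of 100 or more the calls were 47 and 39 in CAL62, 20 and 15 in 8505c, 7 for the line difference with DEL-22379, 54 and 8 for U0126 against DEL-22379 in CAL62 and 8505c, and 66 between the untreated lines. DESeq2 gave 1 at 1 µM in 8505c, 30 and 14 for the line differences and 27 for U0126 against DEL-22379 in 8505c. The line difference with DEL-22379 was 40 under equal totals, and that with U0126 was 13 under quantile normalization, 12 with 5 added before the logarithm and 11 with a filter on a mean of 30. Opposite pairs were 15 without a filter. The causes of these changes were not tested. With 2 replicates, members of about 30 to 100 counts, 131 of the 243, are measured least precisely.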
